A study of Mus musculus with 16 samples.

Results

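Ezetimibe-treated Th17 cultures (Eze) were compared with Th0 cultures, using 4 arrays of each group, which are 8 of the 16 arrays in the series. All 30920 genes that the deposited annotation names with a single symbol were compared, each by its brightest feature. Expression was measured with total RNA on a mouse whole-transcript gene array. The labels describe CD4 T cells from the spleens of wild-type male mice of 8 weeks, of the strain written as C54BL/6, after 3 days of culture. In the Eze group the cells were kept in Th17 condition with 20 µM ezetimibe, a drug that lowers cholesterol uptake. In the Th0 group they were kept in Th0 condition without the drug, and the study's text calls these cells naive T cells. The labels do not say for how long the drug was present, and the study's text gives differing times for its treatments. The methods of the study give stimulation through CD3 and CD28, TGF-β, IL-6 and antibodies to interferon-γ and IL-4 for Th17 differentiation, and no source used here describes the medium of the Th0 cultures. Elsewhere the study's text speaks of splenocytes. The 2 groups therefore differed both in the differentiation medium and in the drug, and in this comparison the effects of these cannot be told apart. Which arrays came from separate mice or cultures is not given either, and p-values here reflect the scatter among these arrays alone, which may be technical.

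Th17 cells are a helper lineage that secretes IL-17A and IL-17F. TGF-β and IL-6 start the programme through STAT3, and IL-23 stabilises it. Th1 and Th2 cells, under T-bet and GATA3, make interferon-γ and the cytokines IL-4, IL-5 and IL-13. Ezetimibe binds NPC1L1, the sterol transporter of the intestine. Cells that are short of sterol process SREBP-2, which raises the genes of cholesterol synthesis.

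The T cell genes Cd3e and Cd4 were above background on all 8 arrays. Cd3e averaged 10.38 ± 0.10 in Eze and 10.28 ± 0.06 in Th0, and Cd4 averaged 10.16 ± 0.15 in Eze and 10.22 ± 0.09 in Th0 (log2 signal, SD, n = 4 each). The background limit of an array was set at the 95th percentile of its 23 antigenomic control features, which match no mouse sequence, and lay between 6.46 and 6.77 on Eze arrays and between 6.84 and 7.16 on Th0 arrays. Cd8a, a marker of cytotoxic T cells, was under that limit on all 8 arrays. Values of 2 arrays correlated at 0.993 to 0.994 within Eze, 0.990 to 0.991 within Th0 and 0.979 to 0.981 between the groups. How well exon control features stood above intron control features, as a receiver operating area that reflects RNA and labelling quality, was 0.890 to 0.894 in Eze and 0.870 to 0.876 in Th0. It did not overlap between the groups, and its part in the differences was not tested. In each group 1 array carries no number in its title, and the headers of the files name it differently from the 3 numbered arrays. This was treated as a batch in an alternative fit only, and the main fit holds no batch term. Array values are given below in the order of the array without a number and the arrays 1, 2 and 3.

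Of the 30920 genes, 3598 (11.6%) were higher and 3540 (11.4%) were lower in Eze than in Th0 at an adjusted p under 0.05, with limma and Benjamini-Hochberg adjustment. Centring every array on its median shifted the difference of all genes by 0.10 on the log2 scale, and the counts were then 5169 and 2061. A difference of at least 2-fold was reached by 268 genes (0.867%) in the higher and 315 genes (1.02%) in the lower direction. The arrays of the groups did not overlap for 8404 genes (27.2%). Among the 5448 genes above the background limit on at least 4 of the 8 arrays, fitted alone, 2397 were higher and 1466 lower. These are larger shares than over all genes, and the counts of list members below are to be read beside both. Many calls concerned dim genes. Both groups were under the background limit on every array for 1340 of the genes called higher and 2373 of those called lower. The median difference over all genes was -0.07, and the median standard error was 0.10. Where a gene was under the limit on all arrays of a group, a fold change is given only as a bound, at least N-fold, set against that limit. For some such genes the log2 difference alone is given, and at least one side of it is then a background value. Such bounds and all differences are on the deposited log2 scale.

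The genes that were most raised in Eze include those for cytokines and a chemokine receptor of Th17 and related cells. Il9 (chromosome 13, 56479277 to 56482246), the cytokine gene of Th9 cells that Th17 cells can also express, had 10.48, 10.35, 10.45 and 10.41 in Eze, against 3.48, 4.11, 3.98 and 4.02 in Th0. All Th0 arrays lay under the limit, and the difference was 6.52 (SE 0.13, adjusted p = 1.24e-09), at least 10.4-fold higher in Eze. Il17f (chromosome 1, 20777146 to 20784270) had 9.42, 9.26, 9.41 and 9.27 in Eze, against 4.87, 3.84, 4.22 and 4.13 in Th0. It was at least 4.93-fold higher in Eze (log2 difference 5.08, SE 0.18, adjusted p = 5.38e-08). For Ccr6, the receptor that guides Th17 cells towards its ligand CCL20, the values were 6.86, 6.84, 6.90 and 7.04 in Eze, against 4.09, 4.12, 4.17 and 4.38 in Th0. All Th0 arrays of Ccr6 lay under the limit. Its Eze mean of 6.91 lay within the 6.84 to 7.16 of the Th0 limits, and no fold is given. That the groups did not overlap was a condition for choosing these genes and is no separate result.

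Il21, a cytokine gene of Th17 and follicular helper cells, was measured above the limit in both groups. It had 10.16, 10.07, 10.12 and 10.24 in Eze, against 8.45, 8.19, 8.20 and 8.17 in Th0, a 3.72-fold difference (adjusted p = 2.46e-07). Cpd, which encodes carboxypeptidase D, was 4.44-fold higher in Eze, with 9.66 to 9.84 in Eze against 7.53 to 7.82 in Th0. The receptor genes Gpr83, known from regulatory T cells of mice, and Cysltr1, for cysteinyl leukotrienes, were at least 1.73-fold and at least 3.45-fold higher. The transcription factor gene Myb was at least 2.54-fold higher in Eze, and Anxa3, of the calcium-binding annexins, at least 2.82-fold. Further genes of the 15 with the greatest rise encode histones. Hist1h2ag and Hist1h1b differed by 2.22 and 1.97 on the log2 scale, and Hist1h2bk by 2.03, the last with a feature that may also bind other genes. All 3 were under the limit on every Th0 array. The bounds were at least 1.57-fold for Hist1h2ag, 1.35-fold for Hist1h1b and 1.715-fold for Hist1h2bk. Klrd1, part of a natural killer receptor, and Pdpn, for podoplanin, differed by 1.997 and 1.86. Both were under the limit on every Th0 array. Their Eze means of 6.84 and 6.94 lay within the 6.84 to 7.16 of the Th0 limits, and no fold is given.

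The strongest falls included a Th2 cytokine, the master regulator of Th2 cells and effector genes. Il13 (chromosome 11, 53631323 to 53634702) had 6.04, 5.77, 5.80 and 5.88 in Eze, against 10.09, 9.92, 9.89 and 9.97 in Th0. It was under the limit on every Eze array and at least 10.7-fold lower there (log2 difference -4.10, SE 0.09, adjusted p = 1.64e-09). Gata3 (chromosome 2, 9857078 to 9890034) had 5.15, 4.87, 5.08 and 5.07 in Eze, against 7.89, 7.83, 7.84 and 7.83 in Th0, at least 2.45-fold lower. Gzmb, for the cytotoxic protease granzyme B, had 7.43, 7.60, 7.74 and 7.58 in Eze, against 10.42, 10.55, 10.49 and 10.57 in Th0, and was 7.59-fold lower in Eze. Serpinb6b, a serine protease inhibitor gene, was at least 5.83-fold lower in Eze, with all Eze arrays under the limit. The chemokine gene Ccl5 was at least 3.09-fold lower, and Fam213a, for a peroxiredoxin-like protein, at least 4.33-fold. Hspa1a, for the inducible chaperone HSP70, was at least 2.34-fold lower in Eze. Pdcd1lg2, which encodes the ligand PD-L2, and Penk, for proenkephalin, were at least 2.20-fold and at least 1.65-fold lower. Ecm1 was 3.92-fold lower in Eze and Tigit, an inhibitory receptor gene, at least 2.93-fold. Oasl1, Usp18, Gbp10 and Epsti1 complete these 15 genes. Oasl1 and Usp18 are described below with the interferon-stimulated genes, and Gbp10 and Epsti1 differed by -2.65 and -2.10, Gbp10 with a feature that may also bind other genes. Epsti1 was under the limit on every Eze array and at least 2.45-fold lower there.

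**Figure D1:**
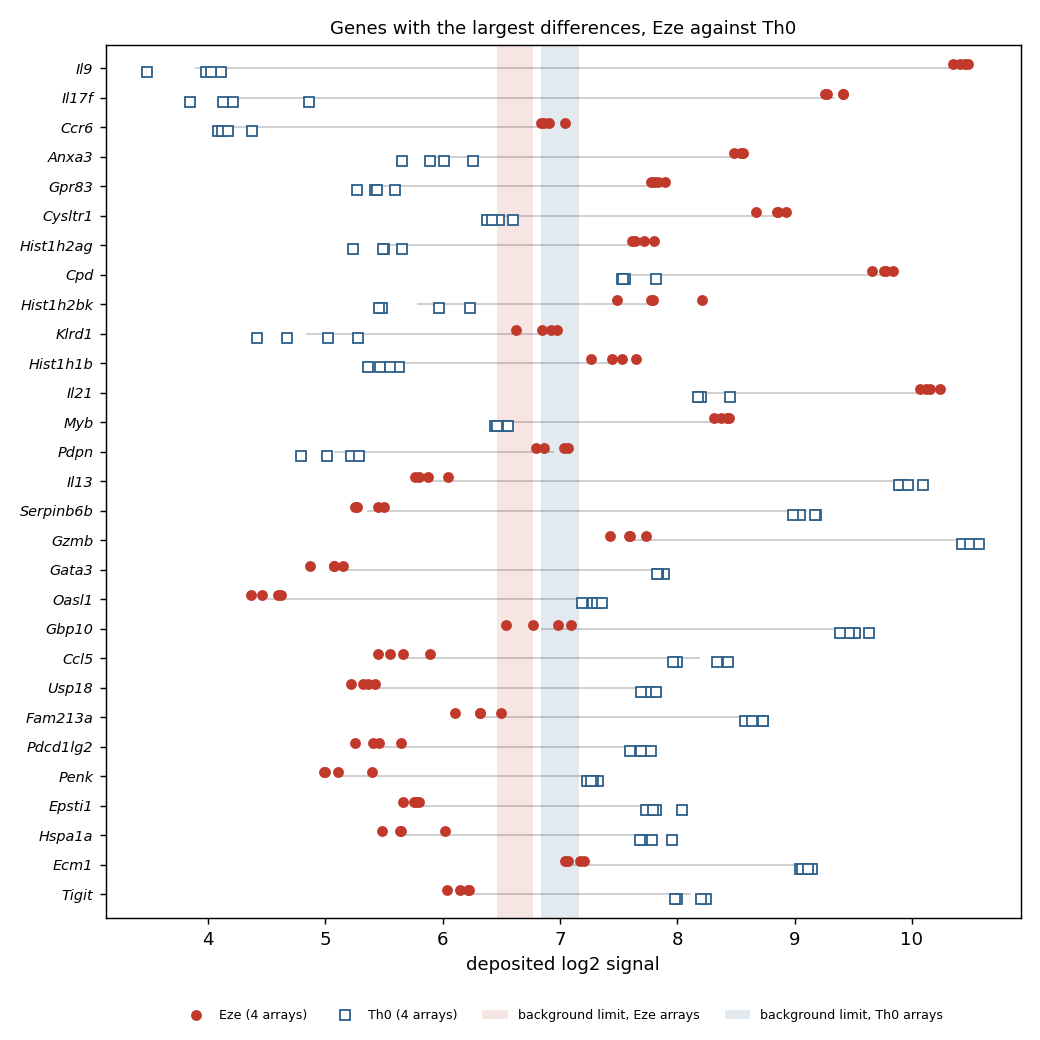
Deposited log2 signal (horizontal axis) of 14 of the 15 genes with the largest rise and of the 15 with the largest fall in Eze against Th0, with 1 point per array (filled circles Eze, open squares Th0, 4 arrays each) and a grey line between the group means. Shaded bands give the range of the background limit over the arrays of each group. That the points of the groups do not overlap was a condition for choosing these genes.

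Lineage genes of Th17 cells were higher in Eze than in Th0 in part. Of 41 such genes, 18 were higher and 9 were lower, against 11.6% and 11.4% of all genes, and the other 14 did not pass the test. At least 2-fold differences were reached by 12 members in the higher and 2 in the lower direction, against 0.867% and 1.02% of all genes. Of the 5448 brighter genes fitted alone, 2397 were higher and 1466 lower, 152 and 125 of them at least 2-fold. Both groups were under the limit on all arrays for 14 of the 41 members, so the list and the brighter genes are unlike sets. The median difference was 0.22, with 0.27 among numbered arrays and 0.23 between the arrays without a number. The aryl hydrocarbon receptor gene Ahr had 8.16, 7.99, 8.02 and 8.17 in Eze, against 6.58, 6.48, 6.30 and 6.35 in Th0. It did not overlap and was at least 2.06-fold higher in Eze. Il17a (chromosome 1, 20730905 to 20734496) had 6.59, 6.47, 6.51 and 6.43 in Eze, against 3.34, 4.28, 3.86 and 4.08 in Th0. The difference was 2.61 (SE 0.17, adjusted p = 2.32e-06), but only 2 Eze arrays were above the limit, and no fold is given. The gene of the CCR6 ligand, Ccl20, had 7.10, 6.92, 6.82 and 6.58 in Eze, against 5.20, 5.19, 4.96 and 5.47 in Th0, a difference of 1.65. Il23r and Il1r1, receptors for the cytokines that sustain Th17 cells, differed by 1.73 and 1.09 while both groups were under the limit on all arrays. Maf, a transcription factor gene shared with Th2 cells, differed by 1.18, with 8.27 to 8.42 in Eze and 6.99 to 7.36 in Th0. Irf4, needed for Th17 differentiation in mice, differed by 0.58.

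Other members of the lineage list were lower in Eze or did not pass. Il24, a cytokine gene of the IL-10 family, had 8.91, 9.03, 8.99 and 9.06 in Eze, against 10.24, 10.30, 10.30 and 10.37 in Th0, and was 2.47-fold lower in Eze. Fosl2, an AP-1 factor gene that restrains parts of the Th17 programme in mice, was 1.69-fold lower, and Tgfb3 differed by -1.22 with both groups under the limit. The AP-1 partner gene Batf differed by -0.41 and Stat3 by -0.37, both past the threshold. Il22 differed by 0.39 (adjusted p = 0.228), Csf2 by 0.16 (adjusted p = 0.539) and Il10 by -0.14 (adjusted p = 0.244), with both groups under the limit for each of these. Centring each array left 20 members higher and 8 lower.

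**Figure D2:**
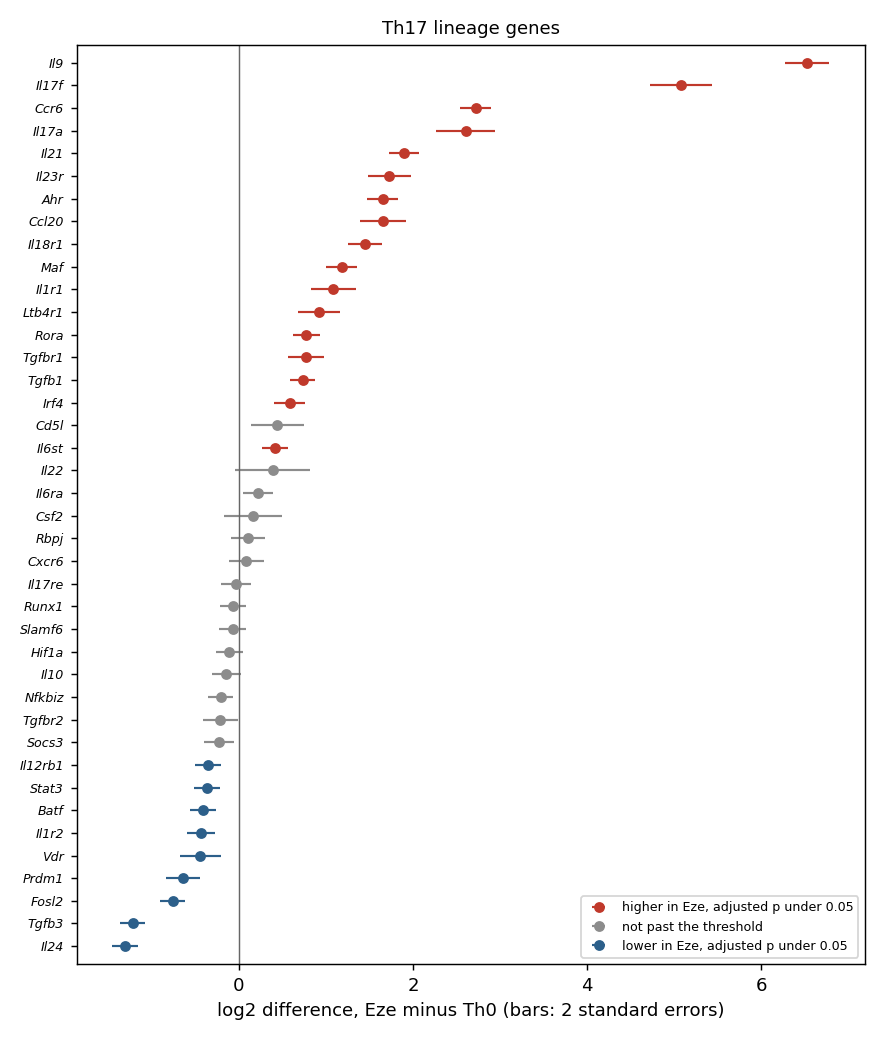
Log2 difference, Eze minus Th0 (horizontal axis), of 40 of the 41 Th17 lineage genes, with bars of 2 standard errors from the fit (4 arrays per group). Red points are 17 of the 18 genes past the threshold in the higher direction, blue points the 9 in the lower direction and grey points the 14 that did not pass, and Il9 and Il17f lie apart from the others at 6.52 and 5.08.

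The 15 genes that the study chose for Th17 differentiation were picked on these samples and are no independent evidence of a direction. Of these, 7 were higher in Eze than in Th0, among them Il17f, Il23r, Ahr, Il1r1, Foxp3 and Il6st. Stat3, Ifngr1, Cd3g and Cd3d were lower, and Il6ra, Jak3, Hif1a and Jun did not pass. Foxp3, the regulator of regulatory T cells, had 7.16, 7.18, 7.27 and 7.10 in Eze, against 6.44, 6.35, 6.43 and 6.54 in Th0, and was at least 1.10-fold higher. Il6st, the signalling chain of the IL-6 receptor, differed by 0.42 and Il6ra by 0.22 (adjusted p = 0.0899). Jak3, Hif1a and Jun differed by -0.05, -0.11 and -0.16, and their adjusted p-values were 0.707, 0.374 and 0.144. Ifngr1, for a chain of the interferon-γ receptor, was 1.43-fold lower in Eze. Cd3d and Cd3g, for chains of the T cell receptor complex, differed by -0.28 and -0.30 and lost the threshold when single arrays were left out. For Cd3d these were the Eze array without a number, Eze array 1, the Th0 array without a number and Th0 arrays 2 and 3 (adjusted p = 0.0522 to 0.076). For Cd3g they were Eze arrays 1, 2 and 3, the Th0 array without a number and Th0 array 3 (adjusted p = 0.0534 to 0.0714).

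The untreated Th17 arrays took no part in the fit, and their means are set beside these values without a test. Il9 averaged 10.42 in Eze, 4.69 in untreated Th17 and 3.90 in Th0. Il17f averaged 9.34 in Eze, 10.34 in untreated Th17 and 4.26 in Th0. Il13 averaged 5.87 in Eze, 5.24 in untreated Th17 and 9.97 in Th0, and Gata3 averaged 5.04, 5.49 and 7.85 in the same order. Ccna2, for cyclin A2, averaged 8.82 in Eze, 8.46 in untreated Th17 and 7.33 in Th0. Il13, Gata3 and Il17f thus lay on the same side of Th0 in both kinds of Th17 culture, while the Il9 mean of untreated Th17 arrays lay under the background limit, as did that of Th0. Il9 was not alone in this. Anxa3 averaged 8.54 in Eze, 5.36 in untreated Th17 and 5.95 in Th0, and Hspa1a averaged 5.69, 7.75 and 7.78. Against Th0, the median difference of ribosome assembly genes was 0.38 in Eze and -0.47 in untreated Th17. That of mitotic genes was 1.003 and 0.64. These are examples only.

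Genes of the Th2 and Th1 lineages were lower in Eze more often than higher. Of 12 Th2 genes, 7 were lower and 2 were higher (58.3% and 16.7%, against 11.4% and 11.6% of all genes). The median difference was -0.74 (-0.73 among numbered arrays and -0.77 between the arrays without a number). Beside Il13 and Gata3 the lower genes included Il5, for the cytokine that acts on eosinophils, which differed by -2.25, and Il4 by -1.52, both under the limit in both groups. Il4 had 5.24, 4.93, 5.29 and 4.88 in Eze, against 6.82, 6.48, 6.45 and 6.69 in Th0. The chemokine receptor genes went both ways. Ccr8 was 2.37-fold lower in Eze, with 6.81 to 6.89 in Eze and 7.98 to 8.22 in Th0, and Ccr4 was 1.35-fold higher. Of 17 Th1 genes, 9 were lower and 4 were higher (52.9% and 23.5%, against 11.4% and 11.6% of all genes). Their median was -0.48. Il12rb2, a receptor chain for IL-12, had 7.65, 7.65, 7.77 and 7.74 in Eze, against 9.26, 9.30, 9.19 and 9.19 in Th0, and was 2.89-fold lower in Eze. Stat4, which signals from that receptor, was 2.59-fold lower, and Tbx21, for T-bet, differed by -0.88. Il18r1, for a chain of the IL-18 receptor, differed by 1.45, and the cytokine gene Tnf was 1.39-fold higher. Ifng differed by -0.22 (adjusted p = 0.189), with all 8 arrays under the limit.

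Of 21 genes of regulatory T cells, 8 were higher and 5 lower (38.1% and 23.8%, against 11.6% and 11.4% of all genes). Their median was 0.22. Gpr83 and Gpr15, for an orphan receptor that guides T cells to the colon, differed by 2.40 and 2.36, and Gpr15 was above the limit on 1 Eze array alone. Nt5e, for the ecto-enzyme CD73 that makes adenosine, was at least 1.44-fold higher in Eze. Ebi3, a cytokine subunit gene, differed by -1.36, and Tnfrsf9, for the costimulatory receptor 4-1BB, was 2.14-fold lower.

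Interferon-stimulated genes, which act against viruses and many of which carry the interferon-stimulated response element, were lower in Eze. Of 46 genes, 36 were lower and 1 was higher (78.3% and 2.17%, against 11.4% and 11.6% of all genes). The median was -0.74 (-0.74 among numbered arrays and -0.67 between the arrays without a number). Both groups were under the limit on all arrays for 22 of the 46. Usp18, which removes ISG15 from proteins and restrains interferon signalling, had 5.42, 5.32, 5.36 and 5.22 in Eze, against 7.74, 7.76, 7.69 and 7.82 in Th0. The groups were far apart, at least 2.29-fold lower in Eze (log2 difference -2.42, SE 0.08, adjusted p = 2.58e-08). Oasl1 had 4.37, 4.60, 4.46 and 4.62 in Eze, against 7.28, 7.19, 7.32 and 7.36 in Th0, at least 1.66-fold lower. Ifi44 had 3.80, 3.65, 3.66 and 4.04 in Eze, against 6.92, 6.72, 7.002 and 6.75 in Th0, a difference of -3.06 with 1 Th0 array above the limit. B cell markers, described below, were lower on the same arrays with a median of -0.87, and their part in this result was not tested.

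The response element, searched as TTTC, any 2 bases and TTTC on both strands, was present in 14 of 28 promoter windows of the members called lower, in 19 of 38 windows of all members and in 3.44% of the 32851 windows of all genes. A window holds 250 bases before and 50 after a start site in RefSeq (build GRCm38.p6). Windows were found for 32 of the 46 members. A pair of windows with the element is shown with the matches in capitals, taken after their values were seen from the members with the strongest falls. Ifit1 binds viral RNA that lacks a complete cap, and Ifih1 encodes the RNA sensor MDA5.
Ifit1 (chr19:34640639-34640938, plus strand): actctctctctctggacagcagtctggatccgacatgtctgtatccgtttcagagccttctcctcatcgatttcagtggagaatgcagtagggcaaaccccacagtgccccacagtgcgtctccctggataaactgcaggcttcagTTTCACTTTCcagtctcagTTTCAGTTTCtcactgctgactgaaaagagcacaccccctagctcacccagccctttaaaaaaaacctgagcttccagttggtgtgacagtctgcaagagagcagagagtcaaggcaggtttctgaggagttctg
Ifih1 (chr2:62646206-62646505, minus strand): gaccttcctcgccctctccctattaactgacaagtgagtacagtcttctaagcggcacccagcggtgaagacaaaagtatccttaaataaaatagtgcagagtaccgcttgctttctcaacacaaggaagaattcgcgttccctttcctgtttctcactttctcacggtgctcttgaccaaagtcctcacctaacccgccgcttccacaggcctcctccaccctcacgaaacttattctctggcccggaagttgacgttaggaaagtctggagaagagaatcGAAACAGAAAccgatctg
Ifih1 had 5.58, 5.47, 5.48 and 5.60 in Eze, against 7.36, 7.26, 7.46 and 7.31 in Th0, at least 1.73-fold lower in Eze. Ifit1 had 4.22, 4.39, 4.72 and 4.38 in Eze, against 6.46, 6.83, 6.64 and 6.82 in Th0, under the limit in both groups. A match describes these letters only.

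Genes of DNA replication and mitosis were higher in Eze, nearly without exception. Of 50 replication genes, 47 were higher and 0 lower, with a median difference of 0.83 (0.85 among numbered arrays and 0.80 between the arrays without a number). Of all genes, 11.6% were called higher and 11.4% lower by limma after adjustment, and 10904 genes differed in either direction at an unadjusted p under 0.05. Orc3, Rfc3 and Orc5 did not pass, at 0.20, 0.15 and 0.05. Rrm2, a subunit of ribonucleotide reductase, had 8.19, 8.00, 8.06 and 8.09 in Eze, against 6.67, 6.58, 6.52 and 6.53 in Th0, at least 2.06-fold higher. Mcm7, of the replicative helicase, had 8.64, 8.73, 8.71 and 8.76 in Eze, against 7.50, 7.30, 7.29 and 7.42 in Th0. It was 2.52-fold higher in Eze (log2 difference 1.33, SE 0.08, adjusted p = 1.28e-06). Tipin, which stabilises replication forks, differed by 1.24.

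Among 65 mitotic, spindle and kinetochore genes, 63 were higher and 0 lower, and 33 of these were at least 2-fold higher, against 0.867% of all genes. The median difference was 1.003, and it was 1.02 among numbered arrays and 1.01 between the arrays without a number. Cenpt (0.21) and Pttg1 (-0.11) did not pass. Ccna2 had 8.92, 8.65, 8.87 and 8.83 in Eze, against 7.43, 7.26, 7.28 and 7.34 in Th0, a 2.81-fold difference. Kif20a, a kinesin gene of cytokinesis, had 7.78, 7.75, 7.77 and 7.80 in Eze, against 6.48, 6.23, 6.20 and 6.19 in Th0, at least 1.66-fold higher. Casc5, a scaffold gene of the kinetochore, was at least 1.95-fold higher. The medians of both lists did not overlap between the groups on any array, as the plot of list levels by array shows. In bulk RNA, a larger share of cycling cells and more of these RNAs per cell cannot be told apart.

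Promoters of these members often held the letters of their known elements. An E2F site (TTTCGCGC, TTTGGCGC, TTTCCCGC or TTTGCCGC, both strands) was found in 15 of 47 windows of the replication genes called higher, in 17 of 50 windows of all 41 members with a window and in 2.26% of all windows. The cell cycle homology region, searched as TTTGAA on both strands, was found in 37 of 58 windows of the mitotic genes called higher, in 37 of 60 windows of all 55 members with a window and in 17.9% of all windows. Overlapping E2F letters were counted once per window. The windows of Mcm7 and Mcm5, with E2F letters in capitals, and of Ccnb2 and Plk1, with TTTGAA in capitals, are shown as examples of members with these letters and were chosen after their values were seen. Ccnb2 encodes cyclin B2 and Plk1 a kinase of mitotic entry and exit.
Mcm7 (chr5:138171834-138172133, minus strand): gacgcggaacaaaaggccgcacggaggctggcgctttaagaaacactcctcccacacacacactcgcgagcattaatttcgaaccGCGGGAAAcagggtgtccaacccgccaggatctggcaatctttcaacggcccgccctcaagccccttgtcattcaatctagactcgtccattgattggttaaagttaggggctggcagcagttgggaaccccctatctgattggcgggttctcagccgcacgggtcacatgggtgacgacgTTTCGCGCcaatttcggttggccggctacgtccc
Mcm5 (chr8:75109259-75109558, plus strand): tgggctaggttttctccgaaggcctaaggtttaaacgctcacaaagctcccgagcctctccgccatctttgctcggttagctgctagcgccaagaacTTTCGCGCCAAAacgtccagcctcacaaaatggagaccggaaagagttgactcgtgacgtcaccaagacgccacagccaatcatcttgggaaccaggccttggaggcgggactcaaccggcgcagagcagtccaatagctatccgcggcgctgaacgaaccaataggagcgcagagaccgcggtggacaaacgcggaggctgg
Ccnb2 (chr9:70421505-70421804, minus strand): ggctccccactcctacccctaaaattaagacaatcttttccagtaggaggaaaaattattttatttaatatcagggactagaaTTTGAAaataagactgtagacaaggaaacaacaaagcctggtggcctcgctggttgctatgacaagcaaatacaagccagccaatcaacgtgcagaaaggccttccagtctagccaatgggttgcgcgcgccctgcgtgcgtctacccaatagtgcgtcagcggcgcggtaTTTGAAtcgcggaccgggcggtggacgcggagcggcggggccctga
Plk1 (chr7:122159185-122159484, plus strand): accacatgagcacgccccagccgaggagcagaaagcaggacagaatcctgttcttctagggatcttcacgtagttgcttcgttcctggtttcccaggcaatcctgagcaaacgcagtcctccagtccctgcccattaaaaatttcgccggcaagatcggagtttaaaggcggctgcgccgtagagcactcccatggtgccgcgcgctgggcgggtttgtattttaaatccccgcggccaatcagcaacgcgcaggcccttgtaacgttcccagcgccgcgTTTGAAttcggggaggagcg
Mcm5 had 9.02, 8.99, 8.995 and 8.91 in Eze, against 7.99, 8.06, 8.12 and 7.95 in Th0, a difference of 0.95. Plk1 had 8.64, 8.67, 8.74 and 8.76 in Eze, against 7.27, 7.33, 7.27 and 7.32 in Th0, a difference of 1.41. Ccnb2 differed by 1.41 as well, and none of these genes overlapped.

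**Figure D3:**
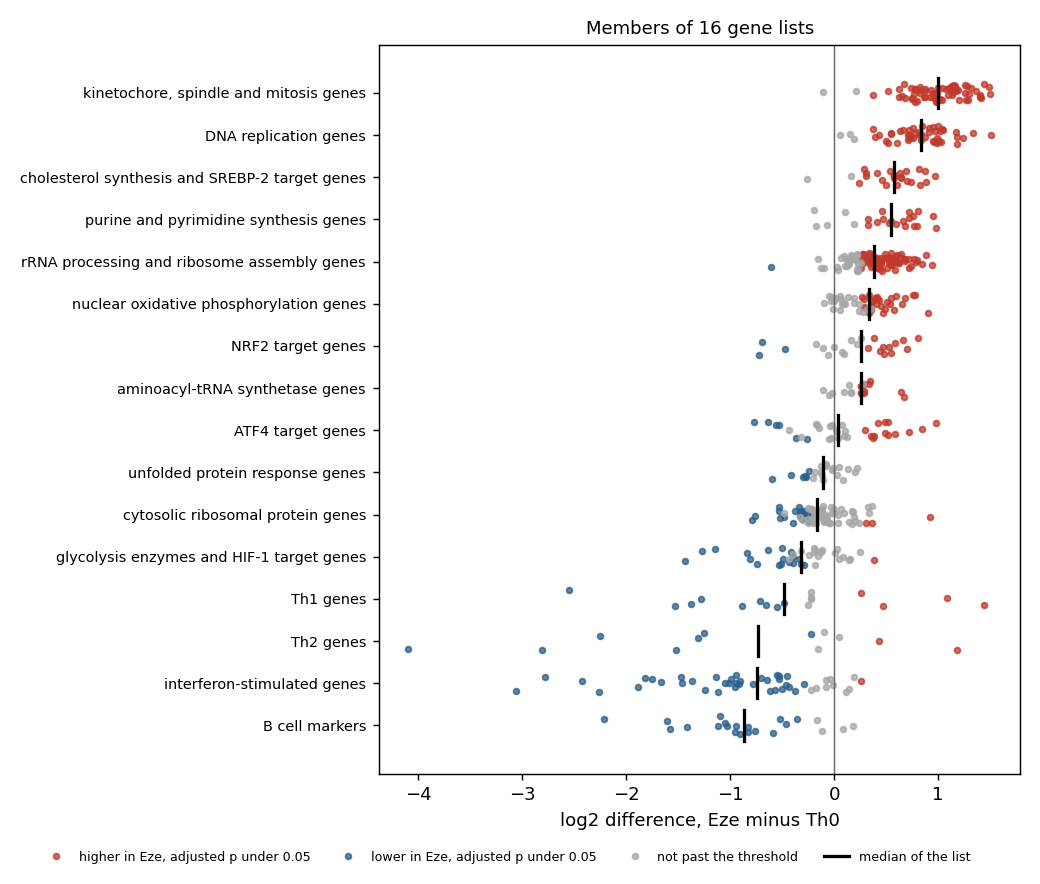
Log2 difference, Eze minus Th0 (horizontal axis), of every measured member of 16 gene lists (4 arrays per group), with vertical jitter within a list. Red and blue points passed the threshold in the higher and the lower direction, grey points did not pass, and black bars are list medians, which run from 1.003 for mitotic genes to -0.87 for B cell markers.

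Genes of cholesterol synthesis and SREBP-2 targets were higher in Eze than in Th0. Of 25 genes, 23 were higher and 0 lower (92% and 0%, against 11.6% and 11.4% of all genes). The median was 0.58 (0.54 among numbered arrays and 0.60 between the arrays without a number), and 2 did not pass, among them Pmvk at 0.16. Differences within the list ran from -0.26 to 0.97. Dhcr7, for the last reductase of the pathway, had 8.07, 7.99, 8.05 and 8.03 in Eze, against 7.12, 7.04, 7.01 and 7.10 in Th0. The groups did not overlap, with 2 Th0 arrays above the limit (log2 difference 0.97, SE 0.07, adjusted p = 4.74e-06). Cyp51, for the lanosterol demethylase, had 8.54, 8.81, 8.91 and 8.87 in Eze, against 7.94, 7.91, 7.84 and 7.92 in Th0, a 1.84-fold difference. Fdps, for farnesyl diphosphate synthase, was 1.83-fold higher in Eze. A sterol regulatory element (TCACNCCAC, both strands, added after values were seen) was in 1 of 18 windows of the members called higher, in 1 of 20 windows of all 17 members with a window and in 1.24% of all windows.

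Npc1l1, the target of ezetimibe, was under the limit on all 8 arrays. It had 4.43, 4.28, 4.66 and 4.41 in Eze, against 4.62, 4.75, 4.65 and 4.54 in Th0, and the groups overlapped (log2 difference -0.19, adjusted p = 0.172). Of 17 genes of sterol efflux and targets of the oxysterol receptor LXR, 5 were higher and 3 lower in Eze. These shares were 29.4% and 17.6%, against 11.6% and 11.4% of all genes. The median was -0.04, and centring turned it to 0.07. Scd1, for a desaturase that is also an SREBP target, had 8.92, 9.12, 9.21 and 9.14 in Eze, against 7.43, 7.65, 7.53 and 7.57 in Th0, a 2.92-fold difference. Lpcat3, for a lysophospholipid acyltransferase, was 1.74-fold higher, and Abcg1, for a sterol exporter, at least 1.38-fold. Npc2, for a lysosomal sterol carrier, was 1.76-fold lower in Eze, and Soat2, for an enzyme that esterifies cholesterol, 1.47-fold.

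Genes of ribosome assembly, nucleotide synthesis and respiration were also higher in Eze. The list of ribosome assembly and rRNA processing had 95 genes. Of these, 68 were higher and 1 was lower (71.6% and 1.05%, against 11.6% and 11.4% of all genes). The median was 0.38 (0.41 among numbered arrays and 0.32 between the arrays without a number). Wdr46 had 8.10, 8.24, 8.28 and 8.25 in Eze, against 6.98, 7.32, 7.43 and 7.61 in Th0, and was 1.85-fold higher without overlap. Ebna1bp2 was at least 1.37-fold higher. Utp20, of the small subunit processome, differed by 0.94. The 1 lower member was Taf1d, for a factor of RNA polymerase I, at -0.61, whose feature may also bind other genes and whose difference was -0.10 (adjusted p = 0.346) with the mean of all its features. The E-box CACGTG, bound by MYC among others, was in 14 of 62 windows of the members called higher, in 20 of 88 windows of all 81 members with a window and in 7.15% of all windows.

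Of 23 genes of purine and pyrimidine synthesis, 18 were higher and 0 lower (78.3% and 0%, against 11.6% and 11.4% of all genes). Their median was 0.55. Gart, for an enzyme of purine synthesis, had 8.25, 8.12, 8.31 and 8.30 in Eze, against 7.22, 7.41, 7.30 and 7.25 in Th0, a 1.93-fold difference. Adsl, of the same pathway, was 1.75-fold higher and Shmt1, for a serine hydroxymethyltransferase, at least 1.18-fold. Of 49 nuclear genes of oxidative phosphorylation, 28 were higher and 0 lower (57.1% and 0%, against 11.6% and 11.4% of all genes). Their median was 0.33. Ndufa4 was 1.69-fold higher in Eze and Ndufa1 at least 1.11-fold, and Cycs, for cytochrome c, differed by 0.77. Of 19 aminoacyl-tRNA synthetase genes, 11 were higher and 0 lower (57.9% and 0%, against 11.6% and 11.4% of all genes). Their median was 0.26. Farsb was 1.60-fold and Hars 1.56-fold higher, but the count of 11 was 7 without Th0 array 2 and 6 without Th0 array 3, Eze array 2 or Eze array 3. Of 23 targets of the oxidative stress factor NRF2, 11 were higher and 3 lower (47.8% and 13%, against 11.6% and 11.4% of all genes). Their median was 0.26. Of the 5448 brighter genes fitted alone, 2397 were higher, and the shares in this paragraph are to be read beside that too. Gclm, for a subunit that limits glutathione synthesis, differed by 0.70, and Sqstm1, for the autophagy receptor p62, was 1.62-fold lower.

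Targets of ATF4, the factor of the amino acid response, went both ways. Of 35, 13 were higher and 6 lower (37.1% and 17.1%, against 11.6% and 11.4% of all genes), with a median of 0.04. Those higher held amino acid enzymes and carriers, such as Shmt2 (1.65-fold), Pycr1 (at least 1.08-fold) and Slc7a3, which differed by 0.98. Among those lower were the stress factor genes Ddit3, which differed by -0.53, and Atf5, at -0.77 with both groups under the limit. The C/EBP-ATF response element TGATGCAA, searched on both strands, was in 2 of 10 windows of the members called higher, in 7 of 36 windows of all 29 members with a window and in 0.895% of all windows. Of 22 genes of the unfolded protein response, 0 were higher and 6 lower (0% and 27.3%, against 11.6% and 11.4% of all genes). Hspa5, for the chaperone BiP, was 1.33-fold lower, and the list median was -0.11. That median was -0.01 with each array centred, and 2 members were then higher and 2 lower. Of 25 heat shock chaperone genes, 8 were higher and 6 lower (32% and 24%, against 11.6% and 11.4% of all genes). With each array centred 11 were higher and 2 lower. Hspa1a had 5.49, 5.63, 5.64 and 6.02 in Eze, against 7.72, 7.79, 7.68 and 7.95 in Th0, and Hspa1b was at least 2.38-fold lower. In contrast Stip1, for a cochaperone of HSP90, was 1.69-fold higher and the mitochondrial chaperone gene Hspd1 1.55-fold.

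Cytosolic ribosomal protein genes were lower in Eze more often than higher. Of 76, 3 were higher and 20 lower (3.95% and 26.3%, against 11.6% and 11.4% of all genes), and their median was -0.16. Of the 5448 brighter genes fitted alone, 1466 were lower. The count of 20 ribosomal protein genes was 12 without Eze array 3, 13 with quantile normalization repeated, 13 with the mean of all features and 8 with each array centred. Rpl6 was 1.72-fold and Rpl21 1.70-fold lower in Eze, where Rpl6 may bind other genes and Rpl21 differed by -0.16 (adjusted p = 0.26) with the mean of its features. The glycolysis enzymes and targets of the hypoxia factor HIF-1 numbered 37. Of these, 18 were lower and 1 was higher (48.6% and 2.7%, against 11.4% and 11.6% of all genes). The median was -0.32 (-0.36 among numbered arrays and -0.28 between the arrays without a number). Slc2a3, for the glucose transporter GLUT3, had 8.50, 8.45, 8.42 and 8.38 in Eze, against 10.02, 9.82, 9.83 and 9.83 in Th0, and was 2.71-fold lower in Eze. Ndrg1 was 2.41-fold lower, with 7.72 to 7.82 in Eze and 9.01 to 9.12 in Th0. Egln3, for an oxygen sensor of the same pathway, was 1.31-fold higher in Eze. Of 24 p53 targets, 3 were higher, a share close to the 11.6% of all genes, and 8 were lower (33.3%, against 11.4%). Their median was -0.13. Mdm2, the p53 ligase gene, differed by -0.58 and the death receptor gene Fas by -0.66. Of 20 genes that respond to TGF-β, 5 were higher and 5 lower (25% each, against 11.6% and 11.4% of all genes). Their median was -0.07, and centring turned it to 0.04. Pmepa1, an inhibitor of that pathway, was at least 1.06-fold higher, and Bhlhe40 1.65-fold lower.

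**Figure D4:**
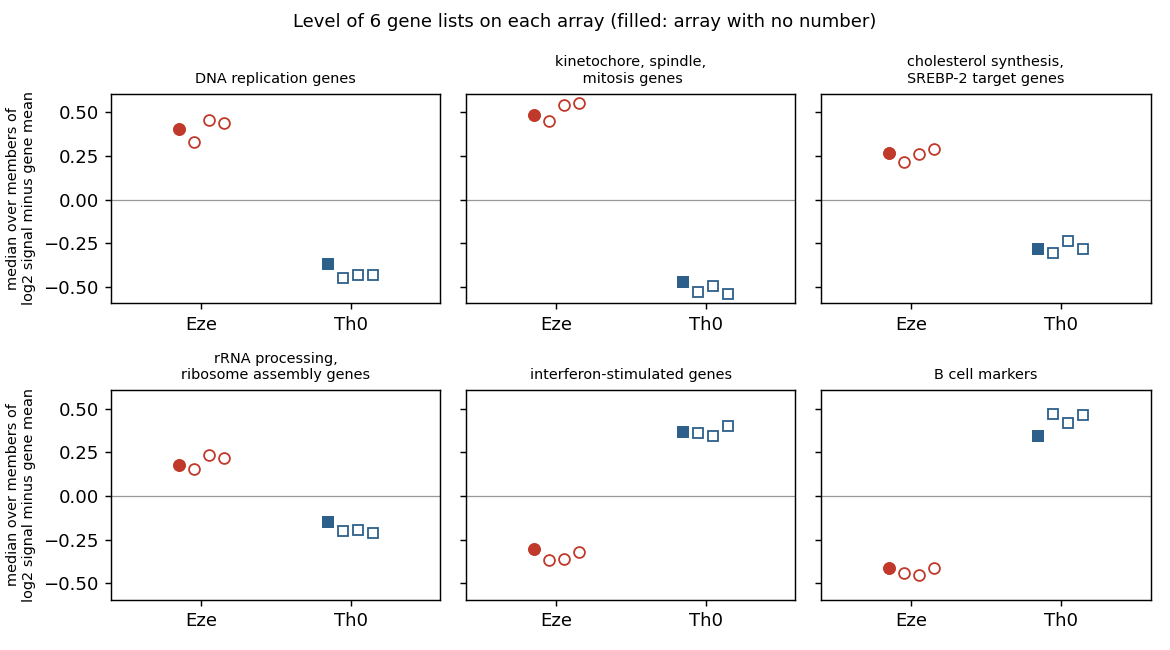
Level of 6 gene lists on each array, as the median over members of the log2 signal minus the gene's mean over the 8 arrays (vertical axis), with Eze (red circles) left of Th0 (blue squares). Filled symbols are the arrays without a number, and the arrays of the groups do not overlap for any of the 6 lists.

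Genes of T cell activation included members called in both directions. Of 27 early activation genes, 8 were higher and 9 lower (29.6% and 33.3%, against 11.6% and 11.4% of all genes). Their median was -0.10, and centring turned it to 0.01. Tfrc, for the transferrin receptor, had 9.27, 9.22, 9.36 and 9.32 in Eze, against 8.43, 8.26, 8.20 and 8.26 in Th0, a difference of 1.003. Il2, the T cell growth factor gene, differed by 1.51 and was above the limit on 1 Eze array. Tnfaip3, which restrains NF-κB, had 7.67, 7.34, 7.41 and 7.44 in Eze, against 9.08, 9.01, 8.96 and 8.81 in Th0, and was 2.83-fold lower in Eze. Atf3 was 2.69-fold lower and Nr4a2 at least 1.62-fold. Among 23 genes for T cell receptor chains and proximal signalling, 3 were higher and 8 lower, with a median of -0.12. These shares were 13% and 34.8%, against 11.6% and 11.4% of all genes. Sla, for an adaptor that dampens the receptor, was 2.29-fold lower in Eze, Trat1 1.95-fold and the kinase gene Zap70 1.44-fold. The 3 higher were Lat, Grap2 and Ubash3a, a share close to the 11.6% of all genes called higher. Lat lost the threshold without Eze array 2 or Th0 array 1 or 3 (adjusted p = 0.0512 to 0.0635), and Ubash3a without Eze array 2 or 3 or Th0 array 2 or 3 (adjusted p = 0.05 to 0.0784). With each array centred, 6 genes of this list were higher and 5 lower. Among 23 genes that mark resting or naive T cells, 5 were higher and 9 lower, with a median of -0.15. These shares were 21.7% and 39.1%, against 11.6% and 11.4% of all genes. Il7r, for the IL-7 receptor, was 2.12-fold lower in Eze and the cell cycle inhibitor gene Cdkn1b 1.60-fold, while Txnip was 1.47-fold higher.

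Of 20 costimulatory and checkpoint receptor genes, 9 were lower and 3 higher (45% and 15%, against 11.4% and 11.6% of all genes). Their median was -0.31. Lag3, an inhibitory receptor gene, had 6.95, 6.87, 6.75 and 6.83 in Eze, against 8.56, 8.30, 8.40 and 8.35 in Th0, and was 2.93-fold lower in Eze. Cd274, for the ligand PD-L1, had 6.57, 6.51, 6.51 and 6.64 in Eze, against 8.48, 8.45, 8.44 and 8.49 in Th0, a difference of -1.91 with 3 Eze arrays above the limit. Icos, a costimulatory receptor gene, was 1.28-fold higher. The other two higher members lost the threshold when single arrays were left out. For Ctla4 these were the Eze array without a number, Eze arrays 2 and 3, and Th0 arrays 1, 2 and 3 (adjusted p = 0.0618 to 0.0831). For Cd40lg they were the Eze array without a number, Eze arrays 1 and 2, and Th0 arrays 1 and 3 (adjusted p = 0.0574 to 0.0882). Of 25 chemokine and chemokine receptor genes, 3 were higher, namely Ccr6, Ccl20 and Ccr4, a share close to the 11.6% of all genes. In the other direction 7 were lower (28%, against 11.4% of all genes). The median of -0.10 turned to 0.01 with centring. Cxcr4, which retains cells in the marrow, was 2.33-fold lower in Eze.

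Markers of B cells were lower in Eze as well. Of 22 such markers, 18 were lower in Eze and 0 were higher (81.8% and 0%, against 11.4% and 11.6% of all genes). The median was -0.87 (-0.92 among numbered arrays and -0.82 between the arrays without a number). Their summed linear signal was 2004 to 2040 on Eze arrays and 3578 to 3825 on Th0 arrays. Both groups were under the limit for 10 of the 22. Cd79a, of the B cell receptor, had 6.68, 6.44, 6.39 and 6.48 in Eze, against 8.04, 8.10, 8.18 and 8.09 in Th0. It was above the limit on all Th0 arrays and on no Eze array, at least 2.92-fold lower in Eze. Ms4a1, for a B cell surface antigen, was under the limit in both groups. In bulk RNA, fewer B cells and less of these RNAs per cell cannot be told apart, and the part of B cells in the other differences was not tested. Of 15 cytotoxic and natural killer markers, 6 were higher and 5 lower (40% and 33.3%, against 11.6% and 11.4% of all genes). Those lower were Gzmb, Gzma, Gzmc, Prf1 and Nkg7, of cytotoxic granules, and those higher included the receptor genes Klrd1 and Klrc1. Myeloid, erythroid and platelet markers were called no more often than the 11.6% and 11.4% of all genes. Of 25 myeloid markers, 2 were higher and 1 was lower, and 22 were under the limit in both groups. Their summed signal was 907 to 934 on Eze arrays and 910 to 993 on Th0 arrays. Of 13 erythroid and platelet markers, 0 were higher and 1 was lower, and all were under the limit on all 8 arrays.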

How the data were processed

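Total RNA was hybridised to a whole-transcript mouse gene array. The deposited values are log2 signals, which the authors had preprocessed with the algorithm they name range migration and then quantile normalized. No source used here names the annotation's genome build. Of 26682 symbols in the RefSeq table (GRCm38.p6), 67.3% had the same start or end. The 2 deposited tables hold equal values. Of 41345 features, the 31872 main ones with 1 symbol gave 30920 genes, and 657 genes with more than 1 feature were represented by the brightest. Of all genes tested, 3714 carry the file's mark of possible cross-hybridisation. Differences were fitted with limma 3.58.1 (R 4.3.3, lmFit and eBayes, 8 arrays) and adjusted by Benjamini-Hochberg over all genes, with a threshold of 0.05. Simulated data were used to check the fit. The number of arrays limits the precision.

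The genes, lists and motifs were chosen with earlier results of these data known, and the sterol regulatory element was added after values were seen. Named were the 15 genes with the largest difference in each direction past the threshold, without overlap and above background in the higher group. Results for a few genes are not reported here. Predicted genes, small RNAs and antigen receptor segments were passed over (1 higher and 2 lower). Up to 3 members per list and direction, the 15 genes of the study and 6 fixed genes were added, and further members are named where a count or a shown sequence turned on them, after their values were seen. Alternatives were all 16 arrays, batch and replicate terms, other scaling, the mean of features, dim genes left out, a variance trend, the other table, the exact Mann-Whitney test and each array left out.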

Additional observations from a re-analysis of the deposited data

Results flagged for a closer look

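For 17 of 340 named gene and group combinations, 1 array stood apart from the other 3, with a gap to its nearest neighbour that took more of the group's range than Dixon's test allows at the 95% level. Chance flags about 1 in 20 such groups, or close to this number. That concerns the number of flags only and not their place, and most of them were in Th0. In Eze the shares were 0.866 for Grap2, 0.895 for Vegfa, 0.868 for Gclm and 0.837 for Shmt1. In Th0 they were 0.921 for Cpd, 0.907 for Il21, 0.897 for Gata3, 0.845 for Ifngr1, 0.899 for Ccr4, 0.860 for Nt5e and 0.888 for Rps27. They were also 0.879 for Kif20a, 0.870 for Farsb, 0.934 for Egln3, 0.933 for Slc2a3, 0.905 for Fdps and 0.860 for Ei24 in Th0. In Th0 the array apart was often the one without a number, as for Il21, with 8.45 there and 8.17 to 8.20 on the numbered Th0 arrays, all under the 10.07 to 10.24 of the Eze arrays. For Gata3 the spread behind the value is small, with 7.89 on the Th0 array without a number and 7.83 to 7.84 on the others.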

How the results depend on the processing

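The replicate block, with the array numbers as a term, gave 6431 genes (3298 higher and 3133 lower), 18 Th17 lineage genes higher and 35 interferon-stimulated genes lower. Whether the numbers pair the arrays is not given. Deviations of same-numbered arrays correlated at 0.060, 0.019, -0.024 and 0.016, and those of differently numbered arrays at -0.058 to 0.027. Such values cannot decide whether arrays shared a mouse, a culture or a run. With each array centred, calls split into 5169 higher (71.5%) and 2061 lower, against 3598 (50.4%) and 3540, and 8 ribosomal protein genes were lower. Ribosomal protein genes lower numbered 13 with quantile normalization repeated, 13 with the mean of features and 12 to 17 with single arrays left out. Aminoacyl-tRNA synthetase genes higher numbered 6 to 10 with single arrays left out. With dim genes left out, 5448 genes were tested, so the counts of calls fell by construction to 3863 called (2397 higher and 1466 lower), 152 and 125 of them at least 2-fold higher and lower. The share of tested genes that was called rose in both directions. Of the members left, 5 of 5 B cell markers, 17 of 22 interferon-stimulated genes and 31 of 42 ribosomal protein genes were then lower. The exact Mann-Whitney test, whose smallest p for 4 against 4 arrays is 0.0286, gave 0 genes after adjustment and 8404 at an unadjusted p under 0.05, while limma gave 10904 at that level. Leaving out single arrays gave 5834 to 6773 genes. Of 3196 values of named genes under alternatives, 3014 kept their direction and their side of the threshold or moved by less than the replicate spread, and 1 was reversed. Both totals hold 170 values from the other deposited table, which were bound to stay the same because the 2 tables hold equal values. With only the arrays without a number, which allow no test, 77 of 170 named genes moved by more than that spread. The reversed gene was Ei24, at -0.0101 between the arrays without a number against 0.25 in the fit. The cause of these changes was not tested, other than the smaller number of genes or arrays. Array number and the background limit restrict what can be said of genes that are dim in both groups.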

Other observations

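Histone genes of the replication-dependent clusters, looked at after 3 of them were seen among the 15 genes most raised, were higher in Eze than in Th0 more often than lower. Of 65 such genes, 31 were higher and 2, Hist1h4b and Hist1h4i, were lower, against 11.6% and 11.4% of all genes. Of the 5448 brighter genes fitted alone, 2397 were higher and 1466 lower. The median log2 difference of the histone genes was 0.35, and with each array centred 36 of them were higher and 1 was lower. Both groups were under the background limit for 46 of the 65 histone genes, and 19 have features that may bind other genes, so single members are uncertain. The choice followed the values, and no test is given.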
